A study of Mus musculus with 16 samples.

Results

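The 10 genes described here carry electrolytes and water across the surface of the mouse colon, and were picked by name from the 56268 genes of the deposited table. They are the anion exchangers Slc26a3 and Slc26a2, the sodium-proton exchangers Slc9a2 and Slc9a3, the carbonic anhydrases Car1, Car2 and Car4, the water channel Aqp8, the chloride channel Cftr and the magnesium channel Trpm6. Their levels come from RNA sequencing of 16 total RNA libraries of colonic epithelial cells, 4 in each of 4 groups. The DSS groups were cKO mice (Rictor Flox; Villin-Cre) and control mice (Villin-Cre, titled WT) that drank water with 3% dextran sulfate sodium (DSS). The water groups were cKO mice and control mice of the same genotypes on normal water. All 4 groups carry Villin-Cre, in which the Villin promoter drives Cre recombinase in intestinal epithelium, so the deletion is limited to cells where that promoter is active. Rictor is the subunit that defines mTOR complex 2, a growth-signalling kinase, and DSS injures the colonic epithelium. The labels give neither the age or sex of the mice nor the stretch of colon taken. They also do not say that libraries came from separate animals, so the spread behind each p-value may be technical.

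The colon takes back most of the salt and water that reaches it. At the surface, sodium enters colonocytes in exchange for protons and chloride enters in exchange for bicarbonate, carbonic anhydrases supply the protons and bicarbonate from carbon dioxide, and water follows the salt. Chloride leaves through Cftr when the epithelium secretes, and inflamed colon is known for loss of absorptive transporters and for diarrhoea.

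Recovered reads came to between 13911823 and 16414914 per library. Rictor averaged 2.51 ± 0.46 FPKM in cKO DSS libraries and 3.63 ± 0.57 FPKM in control DSS libraries, and 2.47 ± 0.24 FPKM in cKO water libraries and 2.80 ± 0.44 FPKM in control water libraries (SD, n = 4 each). These levels cover the whole gene, so a transcript that has lost only its deleted exons is still counted and the check of the genotype is incomplete. Reads of 4 Y-linked genes numbered 2681 to 4533 in the DSS libraries and 0 to 1856 in the water libraries, with 0 in control water library 3 and cKO water libraries 3 and 4. Dbp, an output gene of the circadian clock, lay at 0.135 to 2.26 FPKM in the DSS libraries and 1.52 to 28.4 FPKM in the water libraries. Xist, of female X inactivation, lay at 33.2 to 105 FPKM in the water libraries. It was 20.5 FPKM in control DSS library 2 and at most 0.0268 FPKM in the other DSS libraries. Control water libraries 1, 2 and 4 and cKO water libraries 1 and 2 held both Xist and Y-linked reads. Sex-linked and clock genes thus differed between DSS and water libraries, so sex and DSS cannot be told apart here. The part of these genes in the DSS results was not tested beyond a fit with the Y-linked level as a covariate. That fit cannot part DSS from the Y-linked level. Libraries cKO DSS 3 and 4 lay apart from the others on the second principal component, at -33.9 and -32.2. The epithelial markers Epcam and Vil1 were present throughout, with Epcam between 639 and 866 FPKM. All 6 endothelial markers stayed under 1 FPKM in every library. Other cell types were present: monocyte and macrophage markers summed to 65.6 to 103 FPKM in DSS libraries and 35.2 to 58.4 FPKM in water libraries. Of these 8 markers, 3 stayed under 1 FPKM in every library and 4 were tested. With DSS in control mice 3 of the 4 were higher and 1 was lower, where 28.5% of all genes were called. In cKO mice 3 were higher and none lower, where 14.7% were called. Markers of T cells and intraepithelial lymphocytes summed to 17.9 to 30.4 FPKM in DSS libraries and 11.8 to 23.4 FPKM in water libraries. The part of these cells in the results was not tested. In bulk RNA, fewer cells of a type and less RNA per cell cannot be told apart.

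All 10 genes passed the filter on low values (at least 1 FPKM, a read level scaled to gene length and library depth, in at least 4 libraries). On this length-scaled measure they spanned a wide range. Car1, with a mean of 4229 FPKM over the 16 libraries, ranked 5 of 21936 protein-coding genes. Car2 averaged 365 FPKM, Aqp8 231 FPKM, Car4 203 FPKM, Slc26a3 129 FPKM, Slc26a2 109 FPKM and Slc9a3 103 FPKM. Lower levels were 53.5 FPKM for Slc9a2, 34.0 FPKM for Cftr and 11.4 FPKM for Trpm6. Most of this order held in every library: Car1 lay above Car2, Car2 above Aqp8, Slc9a3 above Slc9a2, Slc9a2 above Cftr and Cftr above Trpm6 in 16 of 16. Neighbours in the middle crossed, with Aqp8 above Car4 in 12 of 16 libraries, Slc26a3 above Slc26a2 in 10 and Slc26a2 above Slc9a3 in 9. Car4 ranged most widely, its highest library at 4.98 times its lowest. Car1 followed at 3.58 times and Slc26a3 at 3.20 times, while Slc9a2 varied least, at 1.43 times.

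**Figure D1:**
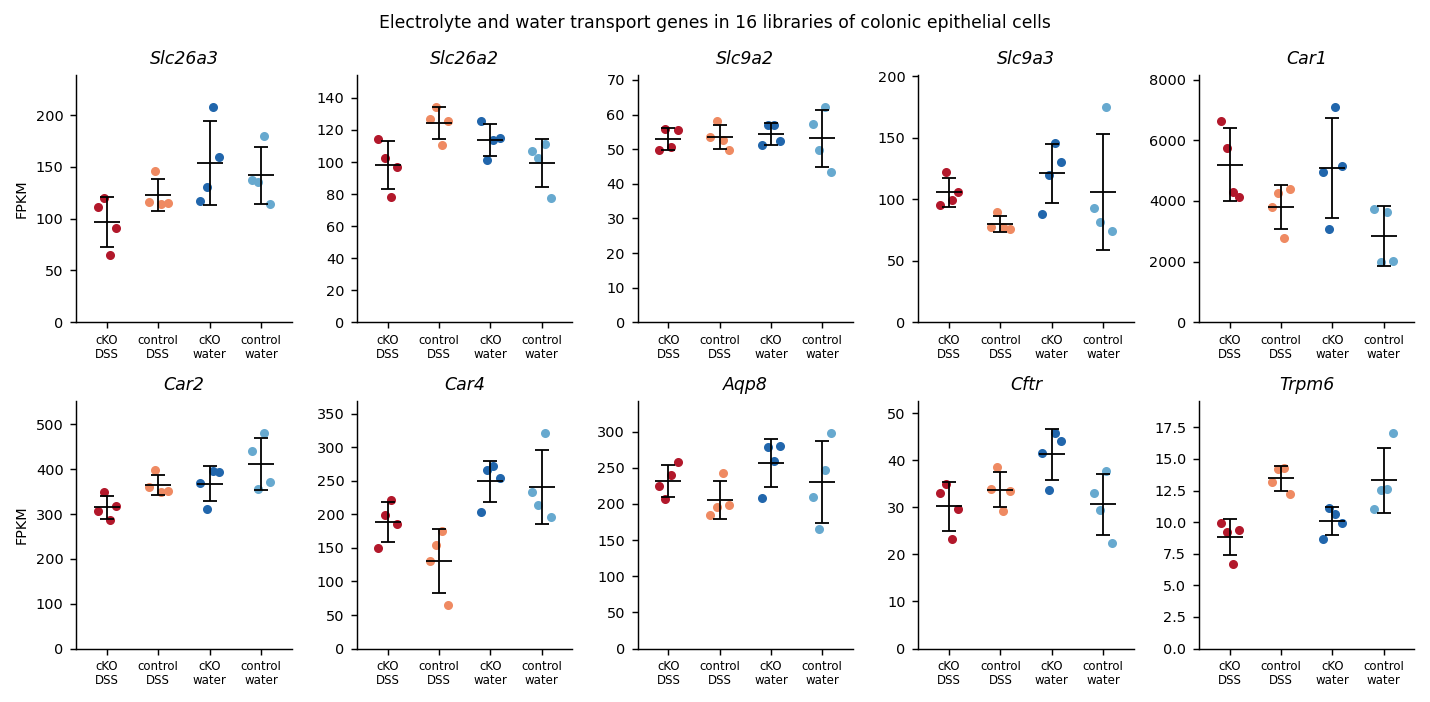
FPKM of each of the 10 genes in the 16 libraries, from left to right cKO DSS, control DSS, cKO water and control water. Each point is a library and the bars give the mean ± SD (n = 4). Car4 lay between 64.5 and 175 FPKM in control DSS libraries and between 196 and 321 FPKM in control water libraries, and Trpm6 lay between 6.70 and 9.96 FPKM in cKO DSS libraries and between 12.2 and 14.3 FPKM in control DSS libraries.

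Few of the 10 genes passed the test in any comparison (limma on log2(FPKM + 1), with Benjamini-Hochberg adjustment over 13255 genes and a threshold of 0.05). Between cKO and control on water none did, where 0.0905% of all genes tested were called (0.0528% higher and 0.0377% lower), the smallest adjusted p was 0.176 in limma, and limma voom on the recovered reads also called none. Between cKO and control after DSS, Trpm6 was lower, where 3.7% of all genes were called in either direction, 2.03% higher and 1.67% lower. Between DSS and water in control mice Car4 was lower, against 28.5% of all genes called, 15.0% higher and 13.5% lower. Between DSS and water in cKO mice Slc26a3 was lower, against 14.7% called, 8.07% higher and 6.64% lower. In the test of whether the DSS difference itself depended on genotype, none of the 10 was called, against 0.151% of all genes, 0.0453% higher and 0.106% lower. A single call is 10% of these genes, which is below the background in both comparisons of DSS with water. Unadjusted p-values under 0.05 numbered 3, 3, 2, 2 and 2 of 10 in this order of comparisons, where the shares of all genes were 18.1%, 20.2%, 41.2%, 28.7% and 23.2%. The median log2 fold change of the 10 genes was 0.14, -0.09, -0.06, -0.20 and -0.14, where that of all genes lay between -0.01 and 0.01.

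**Figure D2:**
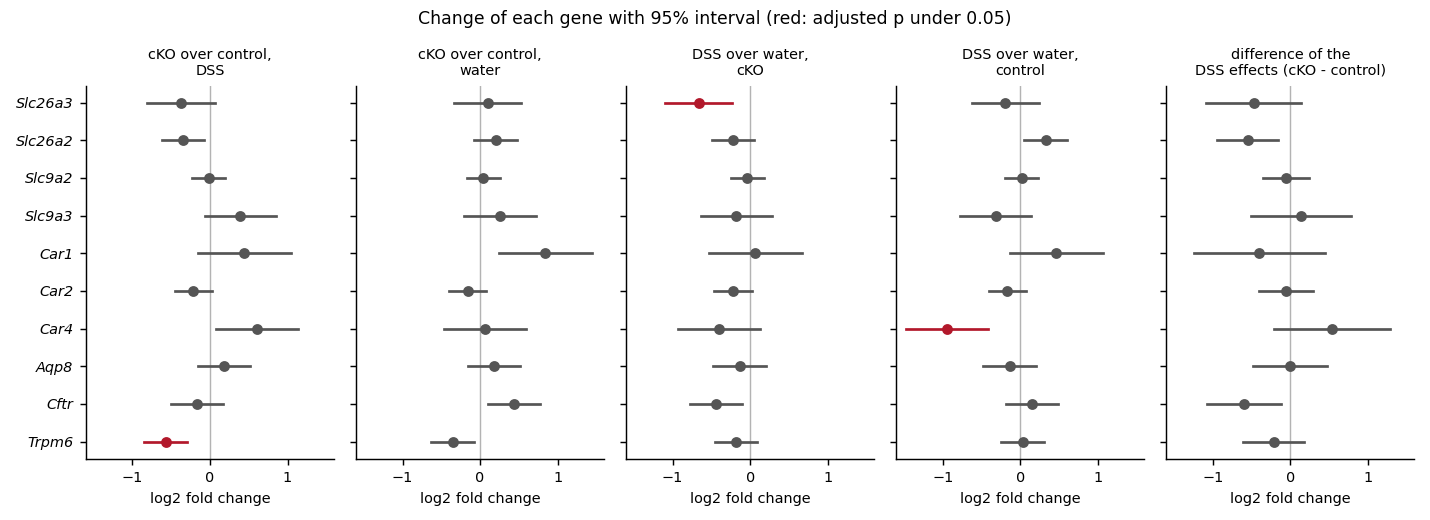
Log2 fold change of each gene in the 5 comparisons, on the log2(FPKM + 1) scale, with 95% intervals from the fit; red marks an adjusted p under 0.05. The red points are Trpm6 at -0.57, Car4 at -0.94 and Slc26a3 at -0.66, and most of the other intervals include 0.

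Slc26a3 (chromosome 12, 31390871 to 31473917, mm10) is the apical exchanger that takes up chloride in return for bicarbonate, and its loss in people causes congenital chloride diarrhoea. It had 111, 120.1, 65.0 and 91.0 FPKM in the cKO DSS libraries, against 117, 131, 208 and 159 FPKM in the cKO water libraries. The ranges touch only at the cKO DSS library with 120.1 FPKM and the cKO water library with 117 FPKM. Slc26a3 fell with DSS in cKO mice to 63.0% of the water mean (log2 fold change -0.66 ± 0.20 SE, limma adjusted p = 0.0402). The call was lost without cKO DSS library 3 (-0.49, adjusted p = 0.112 in limma) or 4 (-0.65, 0.0811), without cKO water library 3 (-0.51, 0.123) or 4 (-0.64, 0.0947), without control DSS library 1 (-0.66, 0.0518), and with the replicate block (0.0628). Without cKO DSS libraries 3 and 4 together it was -0.37 (limma adjusted p = 0.262), and with the Y-linked level as a covariate -0.23 (limma adjusted p = 0.82904). The lowest and the highest library of all 16 were also those with the lowest and the highest mitochondrial share of reads, 4.74% in cKO DSS library 3 and 15.1% in cKO water library 3; the part of that share in the result was not tested.

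In control mice Slc26a3 showed less of a difference with DSS. The control DSS libraries had 116, 146, 115 and 115 FPKM and the control water libraries 137, 136, 179.9 and 114 FPKM, so the groups overlapped. The log2 fold change was -0.19, with a 95% interval from -0.62 to 0.24. The difference between the DSS effects in the 2 genotypes was -0.47 (95% interval -1.09 to 0.14, limma adjusted p = 0.322), so a larger fall in cKO mice was not shown. Between genotypes the log2 fold change was -0.37 after DSS (-0.81 to 0.06) and 0.10 on water (-0.33 to 0.53).

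Slc26a2 (chromosome 18, 61192919 to 61211612) carries sulfate and exchanges it for other anions, and supplies the sulfate used to modify mucins and proteoglycans. It had 115, 103, 78.2 and 97.0 FPKM in cKO DSS libraries and 127, 134, 111 and 126 FPKM in control DSS libraries, and 125, 101, 114 and 115 FPKM in cKO water libraries and 107, 103, 111 and 77.6 FPKM in control water libraries. The control DSS values were the highest group, and overlapped each of the others. No comparison passed, but the estimates pointed opposite ways in the genotypes: the DSS log2 fold change was -0.22 in cKO mice (95% interval -0.50 to 0.05) and 0.33 in control mice (0.05 to 0.61, limma adjusted p = 0.0676). The second of these passed without control DSS library 3 (0.39, limma adjusted p = 0.0489) or cKO DSS library 3 (0.33, limma adjusted p = 0.0458). The difference between the estimates was -0.55 (-0.94 to -0.16, limma adjusted p = 0.126), among the 10 genes the smallest p in that test. After DSS, cKO lay 0.35 below control (log2 fold change -0.35, -0.63 to -0.07, limma adjusted p = 0.142).

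The balance of the anion transporters within a library was set side by side after these values were seen, so it is given with no test. Slc26a3 over Slc26a2 was 0.831 to 1.17 in cKO DSS libraries and 0.916 to 1.09 in control DSS libraries, and 0.931 to 1.83 in cKO water libraries and 1.29 to 1.62 in control water libraries. All 4 control DSS libraries lay under all 4 control water libraries in this ratio, and the cKO DSS and cKO water libraries overlapped. Slc26a3, on the absorptive side, over Cftr, on the secretory side, was 2.79 to 3.43 in cKO DSS libraries and 3.43 to 3.92 in control DSS libraries, and 2.81 to 4.55 in cKO water libraries and 4.16 to 5.11 in control water libraries. The control DSS and control water libraries did not overlap in this ratio either.

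Slc9a3 (chromosome 13, 74121457 to 74169442) is NHE3, the exchanger that takes up most sodium at the apical membrane, and Slc9a2 (chromosome 1, 40680574 to 40769273) is NHE2, which shares that membrane. Slc9a3 had 95.5, 122, 99.1 and 106 FPKM in cKO DSS libraries, against 77.0, 89.3, 77.6 and 75.9 FPKM in control DSS libraries. Every cKO DSS value lay above every control DSS value, and 3 of the 10 genes separated these groups in either direction, as did 10% of all genes tested (1326 of 13255). The mean in cKO was 132% of that in control, and this did not pass (log2 fold change 0.39 ± 0.22 SE, 95% interval -0.07 to 0.85, limma adjusted p = 0.327). On water Slc9a3 had 88.2, 119.6, 145 and 130.4 FPKM in cKO libraries and 92.8, 81.6, 175 and 73.8 FPKM in control libraries, with full overlap. The control water libraries held both the highest and the lowest value of all 16. Those libraries, 3 and 4, also held the highest and the lowest Dbp on water, 28.4 and 1.52 FPKM, and the part of the clock in the spread of Slc9a3 was not tested.

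Slc9a2 was the steadiest of the 10 genes. It averaged 53.0 ± 3.05 FPKM in cKO DSS libraries and 53.5 ± 3.48 FPKM in control DSS libraries, and 54.4 ± 3.08 FPKM in cKO water libraries and 53.2 ± 8.21 FPKM in control water libraries (SD, n = 4 each). Its 4 log2 fold changes lay between -0.04 and 0.04, with 95% intervals no wider than -0.25 to 0.25. Against it, Slc9a3 stood at 1.91 to 2.19 times the Slc9a2 level in cKO DSS libraries and 1.44 to 1.54 times in control DSS libraries, which did not overlap; on water the ratio was 1.72 to 2.55 in cKO libraries and 1.62 to 2.81 in control libraries. These ratios too were chosen with the values in view and carry no test.

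The window from 250 bases before to 50 bases after the RefSeq start site (GRCm38.p6, the mm10 build) was found for 6 of the 10 genes. That of Slc26a3 lies inside the deposited gene span, with its start site 47348 bases from the first base, and may not be the promoter of the measured gene. Each window was searched on both strands for 4 motifs: CACGTG, the E-box bound by the clock factors CLOCK and BMAL1 among others; TGTTTAC, of the FOXO family; TTTATG, of the intestinal factor CDX2; and CAAAGTCCA, of HNF4A. Of 32851 RefSeq windows of this length, 7.15% held the E-box, 3.65% the FOXO motif, 11.9% the CDX2 motif and 0.475% the HNF4A motif. The E-box was found in Slc9a3, with its first base 87 bases before the start site, and in Aqp8, 75 bases before it. A match is a description of letters and not evidence of binding, and its absence says only that these letters are not in the window. The Slc9a3 window (chr13:74121163-74121462, plus strand) and the Aqp8 window (chr7:123462044-123462343, plus strand) are shown because they alone of the 6 held a searched motif, given in capitals.
Slc9a3: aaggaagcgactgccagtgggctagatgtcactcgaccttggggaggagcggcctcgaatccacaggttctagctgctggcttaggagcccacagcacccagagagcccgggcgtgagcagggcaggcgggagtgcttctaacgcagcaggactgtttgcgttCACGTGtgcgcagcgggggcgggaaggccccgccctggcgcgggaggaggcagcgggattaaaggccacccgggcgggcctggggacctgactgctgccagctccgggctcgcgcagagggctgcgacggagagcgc
Aqp8: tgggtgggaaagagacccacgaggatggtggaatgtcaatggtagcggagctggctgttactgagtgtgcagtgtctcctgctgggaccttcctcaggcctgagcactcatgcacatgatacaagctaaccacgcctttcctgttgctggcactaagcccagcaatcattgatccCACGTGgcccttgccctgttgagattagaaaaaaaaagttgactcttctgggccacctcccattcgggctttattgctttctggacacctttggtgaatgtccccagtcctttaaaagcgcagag

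Carbonic anhydrases interconvert carbon dioxide and bicarbonate. Car1 and Car2 work in the cytosol, and Car4 is anchored to the outside of the apical membrane. Car4 (chromosome 11, 84957786 to 84966044) had 130.1, 154, 175 and 64.5 FPKM in control DSS libraries, against 234, 214, 321 and 196 FPKM in control water libraries. All 4 DSS values lay below all 4 water values, and no other of the 10 genes separated these groups, where 28.3% of all genes did in either direction. Car4 fell with DSS in control mice to 54.3% of the water mean (log2 fold change -0.94 ± 0.25 SE, limma adjusted p = 0.0136). The call held without any single library, with log2 fold changes from -1.11 to -0.64, the smallest fall being without control DSS library 4. It was lost with the Y-linked level as a covariate (-0.63, limma adjusted p = 0.325), a level that itself separated all DSS from all water libraries.

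In cKO mice Car4 had 150.4, 199, 221 and 186 FPKM in DSS libraries and 204, 267, 272 and 254 FPKM in water libraries, which overlapped. The log2 fold change was -0.40, with a 95% interval from -0.93 to 0.13 (limma adjusted p = 0.312). The DSS effects in the 2 genotypes differed by 0.54 (-0.21 to 1.29, limma adjusted p = 0.352), so a smaller fall in cKO mice was not shown. After DSS, cKO libraries lay above control libraries at 144% of their mean (log2 fold change 0.60, 0.07 to 1.13, limma adjusted p = 0.185). Without control DSS library 4 the log2 fold change was 0.30 (limma adjusted p = 0.444). This comparison shares the control DSS libraries with the fall in control mice. The window around the Car4 start site (chr11:84957504-84957803, plus strand), shown because Car4 had the most stable call, held none of the 4 motifs.
Car4: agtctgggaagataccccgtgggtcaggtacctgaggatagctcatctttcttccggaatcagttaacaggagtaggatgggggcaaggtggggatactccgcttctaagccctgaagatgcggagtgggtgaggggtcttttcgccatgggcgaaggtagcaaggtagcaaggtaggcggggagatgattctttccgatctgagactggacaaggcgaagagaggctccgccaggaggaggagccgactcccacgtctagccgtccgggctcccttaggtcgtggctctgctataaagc

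Car1 (chromosome 3, 14766216 to 14808368) was the most abundant of the 10 genes and had the largest difference between genotypes on water. The cKO water libraries had 4962, 3077, 7099 and 5156 FPKM and the control water libraries 3731, 1984, 3649 and 2004 FPKM. Of the cKO values, 3 lay above every control value, and the other between the control values. The mean in cKO was 179% of that in control, and this did not pass (log2 fold change 0.84 ± 0.28 SE, 95% interval 0.25 to 1.44, limma adjusted p = 0.176). After DSS it had 6621, 5749.6, 4292 and 4122 FPKM in cKO libraries and 3797, 4260.2, 2783 and 4378 FPKM in control libraries, with a log2 fold change of 0.44 (-0.15 to 1.04). With DSS the log2 fold change was 0.07 in cKO mice (-0.53 to 0.66) and 0.47 in control mice (-0.13 to 1.06).

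Car2 (chromosome 3, 14886273 to 14900770) lies near Car1 in the genome and had negative fold changes between genotypes where those of Car1 were positive. It had 307, 349, 287 and 317 FPKM in cKO DSS libraries and 361, 398, 350.4 and 351 FPKM in control DSS libraries, without overlap. That difference did not pass (log2 fold change -0.21 ± 0.11 SE, 95% interval -0.46 to 0.03, limma adjusted p = 0.306). On water Car2 averaged 368 ± 39.5 FPKM in cKO libraries and 412 ± 58.4 FPKM in control libraries (SD, n = 4 each). The Car1 level was 13.0 to 21.6 times that of Car2 in cKO DSS libraries and 7.94 to 12.5 times in control DSS libraries, and 9.88 to 17.9 times in cKO water libraries and 5.39 to 8.48 times in control water libraries. Within each treatment this ratio was higher in every cKO library than in every control library. The ratio was chosen after its members' values were seen, so it carries no test.

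Aqp8 (chromosome 7, 123462291 to 123468004) is the main water channel of colonocytes. It had 225, 206, 240.1 and 258 FPKM in cKO DSS libraries and 184, 196, 243 and 198 FPKM in control DSS libraries, and 208, 279, 259 and 279.7 FPKM in cKO water libraries and 209, 165, 248 and 298 FPKM in control water libraries. All groups overlapped. The DSS log2 fold change was -0.14 in cKO mice (95% interval -0.48 to 0.20) and -0.14 in control mice (-0.48 to 0.20), and the difference between these was -0.0017 (-0.48 to 0.48). Between genotypes it was 0.18 after DSS (-0.16 to 0.52) and 0.18 on water (-0.16 to 0.52).

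Cftr (chromosome 6, 18170687 to 18322768) is the apical chloride channel through which crypt cells secrete. It had 33.1, 35.0, 23.2 and 29.6 FPKM in cKO DSS libraries and 41.6, 33.6, 45.7 and 44.2 FPKM in cKO water libraries. These ranges overlapped at a single cKO water value, 33.6 FPKM. The DSS difference in cKO mice did not pass (log2 fold change -0.44 ± 0.16 SE, 95% interval -0.78 to -0.11, limma adjusted p = 0.0717), although it passed without control water library 4 (limma adjusted p = 0.0381) or cKO water library 2 (limma adjusted p = 0.0496). In the same comparison 7 of 10 markers of crypt stem and cycling cells fell, with a summed level of 92.5 to 123 FPKM in cKO DSS libraries and 153 to 165 FPKM in cKO water libraries; their part in the Cftr value was not tested. In control libraries Cftr had 33.9, 38.5, 29.2 and 33.4 FPKM with DSS and 33.0, 29.4, 37.6 and 22.3 FPKM on water. Between cKO and control the log2 fold change of Cftr was -0.16 after DSS (-0.50 to 0.17) and 0.43 on water (0.10 to 0.77, limma adjusted p = 0.196), and the difference between the DSS effects in the 2 genotypes was -0.60 (-1.07 to -0.13, limma adjusted p = 0.147).

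Trpm6 (chromosome 19, 18749983 to 18892511) is the apical channel through which the colon and the kidney take up magnesium. It had 9.96, 9.22, 6.70 and 9.41 FPKM in cKO DSS libraries, against 13.1, 14.2, 14.3 and 12.2 FPKM in control DSS libraries. All cKO values lay below all control values. Trpm6 was lower in cKO after DSS, at 65.5% of the control mean (log2 fold change -0.57 ± 0.13 SE, limma adjusted p = 0.0287). The call was lost without cKO DSS library 3 (-0.46, adjusted p = 0.0845 in limma) or 4 (-0.60, 0.0556), or without control DSS library 1 (-0.58, 0.0679) or 2 (-0.54, 0.0956). Without cKO DSS libraries 3 and 4 together it was -0.45 (limma adjusted p = 0.206). Of 8 tested homeobox genes of the posterior Hox list, 1 was higher and 2 were lower in cKO after DSS. Hoxd13 lay at 5.01 to 11.8 FPKM in cKO DSS libraries and 24.3 to 30.6 FPKM in control DSS libraries. Hoxb6 went the other way, at 15.8 to 27.5 FPKM in cKO DSS libraries and 8.55 to 12.3 FPKM in control DSS libraries, and the part of position along the colon was not tested.

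On water Trpm6 had 8.64, 11.1, 10.7 and 9.95 FPKM in cKO libraries and 11.01, 12.5, 12.6 and 17.0 FPKM in control libraries, overlapping by a single value of each group. The difference did not pass (log2 fold change -0.36 ± 0.13 SE, 95% interval -0.63 to -0.08, limma adjusted p = 0.197). The genotype difference after DSS minus that on water was -0.21 (-0.60 to 0.18, limma adjusted p = 0.488), so a larger difference after DSS was not shown. With DSS the log2 fold change was -0.18 in cKO mice (-0.46 to 0.09) and 0.03 in control mice (-0.25 to 0.31). Trpm6 rests on 816 to 1965 reads per library, the fewest of the 10 genes. The window around its RefSeq start site (chr19:18749480-18749779, plus strand), shown because Trpm6 had the only call between genotypes, held none of the 4 motifs.
Trpm6: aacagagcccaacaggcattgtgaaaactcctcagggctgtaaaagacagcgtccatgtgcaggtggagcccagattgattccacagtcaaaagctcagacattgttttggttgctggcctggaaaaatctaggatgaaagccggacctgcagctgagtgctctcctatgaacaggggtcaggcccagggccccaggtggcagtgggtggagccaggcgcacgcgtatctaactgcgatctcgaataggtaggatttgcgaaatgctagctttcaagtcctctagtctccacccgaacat

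**Figure D3:**
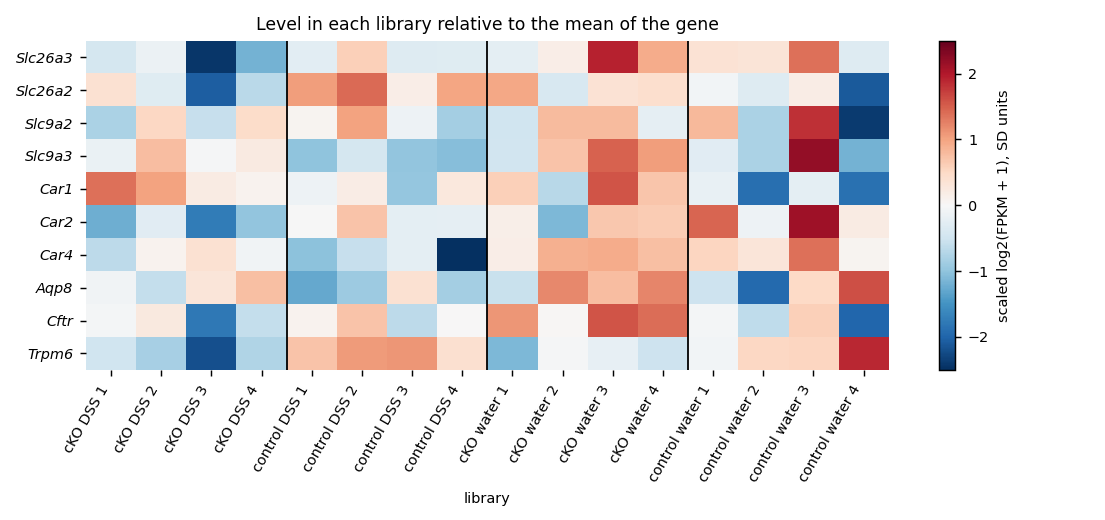
Level of each gene (rows) in each of the 16 libraries (columns), as log2(FPKM + 1) scaled to mean 0 and SD 1 over the libraries; red is above the mean of the gene and blue below, and lines part the 4 groups. Single libraries stand out across several genes: control water library 4 is the lowest of 16 for Slc26a2, Slc9a2, Slc9a3 and Cftr and the highest for Aqp8 and Trpm6, and cKO DSS library 3 is the lowest for Slc26a3, Car2 and Trpm6.

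Pairs of the 10 genes differed in how alike they were over the libraries. Likeness was measured as the root mean square difference between the scaled profiles of 2 genes over the 16 libraries, where 0 means the same profile. The closest pairs among the 10 were Slc26a2 and Cftr (0.64), Slc26a3 and Car2 (0.66), Slc26a3 and Cftr (0.71) and Slc9a2 and Slc9a3 (0.78). Car1 and Trpm6 were far apart, at 1.73. Of 11409 genes ranked by likeness, Slc9a3 was number 14 for Slc9a2, Car2 number 34 for Slc26a3 and Slc26a2 number 51 for Cftr. Among the same genes, the one most like each was Mpp1 for Slc26a3 (0.48), Zfp26 for Slc26a2 (0.39), Fmnl2 for Slc9a2 (0.62), Acot4 for Slc9a3 (0.56), Pparg for Car1 (0.47), Epb41l3 for Car2 (0.45), Sox13 for Car4 (0.42), Wfdc2 for Aqp8 (0.63), Luc7l2 for Cftr (0.44) and Cyp2d10 for Trpm6 (0.45). The next nearest were Aspa for Slc26a3 (0.52), the mineralocorticoid receptor Nr3c2 for Slc26a2 (0.43), Aak1 for Slc9a2 (0.64) and the clock gene Per1 for Slc9a3 (0.57). For the others they were Gclm for Car1 (0.48), Maoa for Car2 (0.49), Zmiz1 for Car4 (0.45) and Pxmp2 for Aqp8 (0.63). Kdm6a was next for Cftr (0.45) and Prdx6 for Trpm6 (0.49). Of the third places only that of Slc26a3 is named here, the mitochondrially encoded mt-Nd4 (0.55). All profiles share the same libraries, depth and base composition, so these are descriptions.

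Of 91 other genes of colonic ion and water transport in 8 lists, 55 passed the filter. Between genotypes on water none was called by limma or limma voom, and 14 had an unadjusted p under 0.05 (18.1% of all genes did). Without cKO DSS library 2, 3 of the 55 were called, 5.45% beside 0.837% of all genes. After DSS, 2 of the 55 were higher in cKO and none lower, a share of 3.64% beside 3.7% of all genes. Limma voom called 2 higher and 2 lower, 7.27% beside 3.92% of all genes, and the count was 0 to 4 when single libraries were left out. Ezr, the actin linker that holds Slc9a3 at the membrane, had 218, 248, 263 and 248 FPKM in cKO DSS libraries, against 178, 169, 202 and 155 FPKM in control DSS libraries (log2 fold change 0.47 ± 0.09 SE, limma adjusted p = 0.0132). Car12, a membrane carbonic anhydrase, had 22.5, 15.5, 23.5 and 17.3 FPKM in cKO DSS libraries and 13.2, 13.8, 13.5 and 13.5 FPKM in control DSS libraries (0.49 ± 0.12 SE, limma adjusted p = 0.0400). Both genes separated the groups fully. For Ezr this comparison shares the control DSS libraries with a fall in control mice (-0.29, limma adjusted p = 0.0249). In cKO mice the DSS log2 fold change of Ezr was 0.09 (limma adjusted p = 0.551). The test of a different DSS effect between genotypes did not pass for Ezr (0.39, limma adjusted p = 0.123) or Car12 (0.39, limma adjusted p = 0.197). The Ezr call was lost without control DSS library 2 (0.46, adjusted p = 0.0569 in limma) or cKO DSS library 3 (0.44, 0.0517). The Car12 call was lost when any of 10 single libraries was left out, with log2 fold changes from 0.40 to 0.59 and adjusted p up to 0.122 in limma.

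With DSS in control mice 27 of the 55 were called, 11 higher and 16 lower. That is 49.1%, against 28.5% of all genes tested. All 9 tested genes of the sodium-proton exchanger and scaffold list were among them, with Chp1 higher and Slc9a3r1, Slc9a3r2, Pdzd3, Ezr, Chp2 and Slc9a8 lower. Slc9a3r1 (NHERF1), which tethers Slc9a3 and Cftr to the cytoskeleton, had 116, 123, 128 and 104 FPKM in control DSS libraries, against 169, 141, 195 and 158 FPKM in control water libraries (log2 fold change -0.48 ± 0.11 SE, limma adjusted p = 0.00552). The ranges did not overlap. Of 15 chloride secretion partners 6 fell, among them the basolateral potassium channel Kcnq1 (-0.44) and the chloride channel Clcn2 (-0.37), and none rose. The calls of Slc9a3r1, Pdzd3 and Kcnq1 held without any single library, and that of Clcn2 was lost without control water library 3 or control DSS library 1. After a correction for GC content none of these 4 was called, with log2 fold changes of -0.16 for Slc9a3r1, -0.36 for Pdzd3, -0.17 for Kcnq1 and 0.020 for Clcn2. All 6 tested fibroblast and matrix markers rose in the same comparison, with the 9 genes listed summing to 15.6 to 19.8 FPKM in control DSS libraries and 5.38 to 7.72 FPKM in control water libraries, and their part in these calls was not tested. The counts depended on single libraries: without control DSS library 1 only 9 of 55 were called, 16.4% against 16.9% of all genes. They were 15 without control water library 3 (27.3% against 18.8%) and 16 without control water library 4 (29.1% against 18.4%). Without control DSS library 2 the count was 16 (29.1% against 18.5%), and without control DSS library 4 it was 17 (30.9% against 19.3%). After the GC correction 12 were called, 9 higher and 3 lower, 21.8% against 19.6% of all genes. With the Y-linked level as a covariate 2 were called, 3.64% against 1.46%.

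Those 2 were Trpv6 and S100g, of calcium uptake, which were called under all 28 alternatives. Trpv6, the apical calcium channel, had 5.88, 6.67, 8.45 and 5.18 FPKM in control DSS libraries, against 1.63, 2.84, 2.94 and 2.42 FPKM in control water libraries (log2 fold change 1.12 ± 0.21 SE, limma adjusted p = 0.00263). S100g (calbindin-D9k), which carries calcium through the cell, had 275, 194, 280.0 and 175 FPKM with DSS and 87.5, 46.7, 113 and 36.8 FPKM on water (1.80 ± 0.42 SE, limma adjusted p = 0.00798). Neither gene overlapped between the groups. In cKO mice Trpv6 had 4.10, 3.07, 3.71 and 3.00 FPKM with DSS and 1.18, 2.05, 2.33 and 4.04 FPKM on water, and did not pass (0.45, limma adjusted p = 0.169). S100g had 309, 102, 133 and 77.8 FPKM with DSS and 74.5, 39.9, 109.6 and 79.6 FPKM on water in cKO mice (0.90, limma adjusted p = 0.171). Neither gene passed the test of a different DSS effect between genotypes. The log2 fold change of Trpm6, the magnesium channel, was 0.03 in control mice (95% interval -0.25 to 0.31).

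The other called genes in control mice were of fatty acid transport, carbonic anhydrases and signals. The monocarboxylate transporter Slc16a1 rose (0.56, limma adjusted p = 0.00855), and so did the sodium-coupled transporter Slc5a8 (0.58), while Bsg, the chaperone of Slc16a1, fell (-0.46). Car8 (0.54) and Car13 (0.48), of the list of other carbonic anhydrases, rose. The aquaporin Aqp1 fell (-0.65), the guanylin gene Guca2a fell (-0.51) and the cyclic GMP phosphodiesterase Pde5a rose (0.44). Magt1 (0.52) and the bicarbonate cotransporter Slc4a7 (0.58) rose. Among these, the calls of Slc16a1 and Pde5a held without any single library, and each of the others was lost without 2 to 8 of them, such as Slc5a8 without control water library 4 or control DSS library 1. The GC correction removed the calls of Slc4a7 (0.35), Car8 (0.33), Car13 (0.25), Aqp1 (-0.46), Guca2a (-0.30) and Bsg (-0.17), with adjusted p from 0.0516 to 0.296 in limma. Those of Slc16a1, Slc5a8, Pde5a and Magt1 stayed. Over the tested genes with known GC content, the log2 fold changes in control mice had a Spearman correlation of -0.53 with it. It was -0.52 between genotypes on water, 0.38 between genotypes after DSS and 0.05 with DSS in cKO mice. For the difference of DSS effects it was 0.59. The part of GC content in those results was not tested beyond the GC correction.

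With DSS in cKO mice 6 of the 55 were called, 1 higher and 5 lower. That is 10.9%, against 14.7% of all genes. After the GC correction 12 were called, 6 higher and 6 lower, 21.8% against 19.1% of all genes. With the Y-linked level as a covariate none was called by limma, beside 0.709% of all genes. In that fit 10 had an unadjusted p under 0.05, as did 1826 of all 13255 genes. The chloride channel Ano1 (-0.45), the potassium channel subunit Kcne3 (-0.31), Slc9a3r1 (-0.37) and the nucleotide exporter Abcc4 (-0.39) fell. Ffar2, a receptor for short-chain fatty acids, rose to 6.96, 6.03, 7.48 and 8.66 FPKM in cKO DSS libraries, against 3.78, 4.02, 2.82 and 4.64 FPKM in cKO water libraries (0.79 ± 0.14 SE, limma adjusted p = 0.00209). Ano1 and Ffar2 were called without any single library, while Kcne3 and Slc9a3r1 were each lost without 4 of the libraries and Abcc4 without 13. No gene of the 55 was called by limma or limma voom in the test of a different DSS effect between genotypes, where 16 had an unadjusted p under 0.05 (23.2% of all genes did). Without cKO DSS library 2, 6 were called, 10.9% beside 9.35% of all genes, and 1 was called without cKO DSS library 1, 1.82% beside 2.96%.

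**Figure D4:**
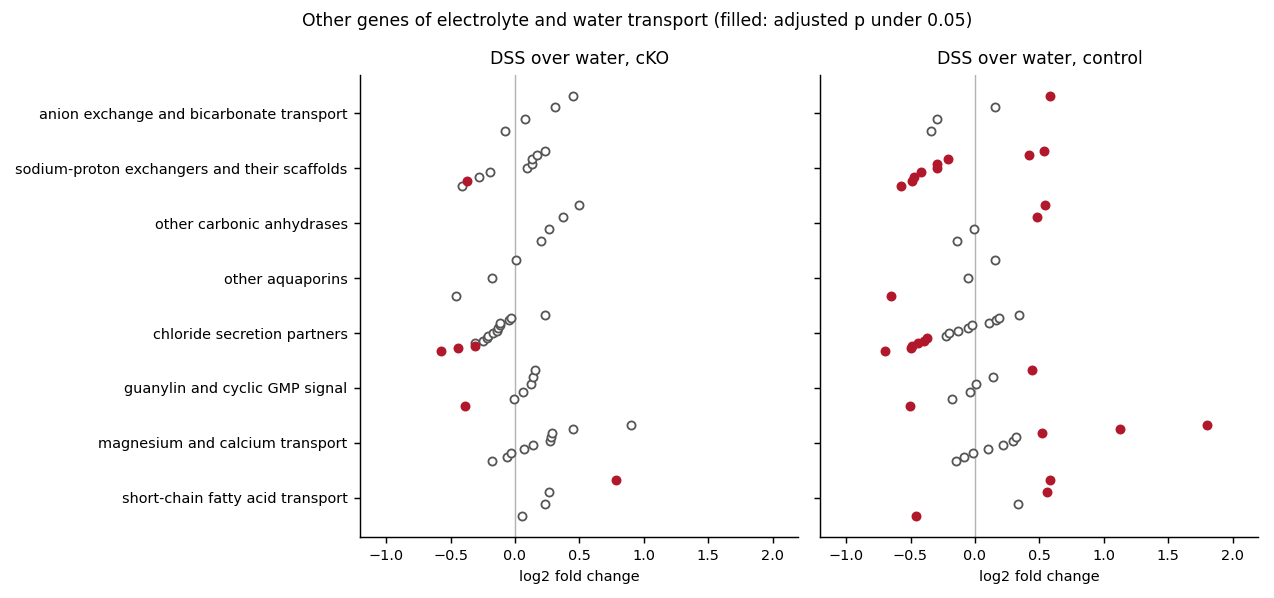
Log2 fold change, DSS over water, of the 55 tested transport genes outside the 10, by list, in cKO mice (left) and control mice (right). Each point is a gene and filled points have an adjusted p under 0.05. In cKO mice 6 points are filled, and in control mice 27, with S100g at 1.80 and Trpv6 at 1.12 farthest to the right.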

How the data were processed

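Per the labels' protocols, low-quality reads and reads with adapter or N bases were removed. The authors deposited FPKM for 56268 genes in 16 libraries. Per the submitters' processing notes they used featureCounts 1.5.0-p3, DESeq2 1.20.0 and mm10. Aligner, annotation release and strand setting: not given in the sources used here, so overlapping genes may share reads. FPKM times gene length gave whole reads for 100% of values, within 0.05 of a read, which set the depth. The 10 genes and all lists were chosen with earlier results of these data known.

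Values were analysed as log2(FPKM + 1). For the 13255 genes that reached 1 FPKM in 4 or more libraries, limma 3.58.1 in R 4.3.3 (eBayes with trend) fitted 4 group means to all 16 libraries, adjusting two-sided p-values over all genes within each of 5 comparisons, called at an adjusted p under 0.05. Fold changes on this scale understate changes of low genes. The fit was tested on simulated data. Of the other transport genes, called ones were named by smallest p, up to 3 per list and comparison; some are not reported here. Promoter windows came from RefSeq tables of GRCm38.p6. The labels name no batch. Alternatives were leaving out each library, a replicate block, limma voom on recovered reads, the 8 samples compared, quantile normalization, shifting medians, filtering at 5 FPKM or not at all, and a pseudocount of 0.1. After seeing the data, others were added: a GC correction (loess, span 0.5; known for 97.1% of genes), fits without cKO DSS 3 and 4 or without control water 4 and control DSS 2, and the Y-linked level as a covariate. That level separated all DSS from all water libraries, so the fit cannot part it from DSS. Under it the genes called with DSS went from 3778 to 193 in control mice and from 1950 to 94 in cKO mice. A call lost or a sign turned there cannot be assigned to either.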

Additional observations from a re-analysis of the deposited data

Results flagged for a closer look

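In 136 groups of 4 libraries (34 genes in 4 groups), 6 held a library far from the other 3 by Dixon's test, where chance flags about 1 in 20 groups. Of the 40 groups of the 10 genes, 2 did. Slc26a3 was at 146 FPKM in control DSS library 2, where the other control DSS libraries had 115 to 116 FPKM. Slc9a3 was at 89.3 FPKM in the same library, where the others had 75.9 to 77.6 FPKM. Among the other transport genes, Pdzd3 was at 8.08 FPKM in control DSS library 1 (others 9.72 to 10.1 FPKM) and Slc5a8 at 127 FPKM in control DSS library 3 (others 168 to 173 FPKM). Abcc4 was at 1.74 FPKM in cKO DSS library 4 (others 2.08 to 2.10 FPKM) and at 1.79 FPKM in control water library 4 (others 2.70 to 2.86 FPKM). Control DSS library 2 was also the only DSS library with Xist at 20.5 FPKM, where the other DSS libraries had at most 0.0268 FPKM, and the part of this in its values was not tested.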

How the results depend on the processing

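Under the 28 alternatives the fall of Car4 with DSS in control mice was called in 27, Trpm6 between genotypes after DSS in 20 and Slc26a3 with DSS in cKO mice in 18; the cause of each loss was not tested. Between genotypes after DSS, none of the 10 genes was called with no filter (where more genes are tested, 0.687% of them called). None was called with the 8 samples compared (fewer samples, 0.724% of all genes called) or without cKO DSS 3 and 4 (0.249%). Nor was any called without control water 4 and control DSS 2 (0.883%). When single libraries were left out 0 to 1 were called, beside 0.588% to 6.68% of all genes. With DSS in control mice 2 were called without cKO DSS 3 and 4 (31.9% of all genes) and 0 with the Y-linked covariate (1.46%). Without single libraries 1 to 2 were called, beside 16.9% to 32.1% of all genes. With DSS in cKO mice 0 were called with no filter (4.80% of all genes), with the 8 samples compared (10.5%) and with the replicate block (14.3%). The count was also 0 without cKO DSS 3 and 4 (13.5%) and with the Y-linked covariate (0.709%). There 2 were called under quantile normalization (13.8% of all genes), limma voom (14.3%), the GC correction (19.1%) and without control water 4 and control DSS 2 (14.8%). Without single libraries 0 to 2 were called, beside 9.85% to 16.2% of all genes. Where 2 were called the second gene was Cftr.

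The replicate numbers were not taken to pair the libraries, since the labels name no batch. Of 24 correlations between libraries of the same number, 6 were over 0.1 (lowest -0.199, highest 0.3). However, 9 of 16 libraries correlated best with a library of their own number. A link between libraries of the same number was not tested beyond the replicate block. Over all settings the count of genes called ran from 2 to 111 between genotypes on water (12 as reported), 33 to 886 after DSS (491), 193 to 4258 with DSS in control mice (3778), 94 to 2533 in cKO mice (1950) and 0 to 1240 for the difference of DSS effects (20).

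Of the signs that turned, that of Clcn2 with DSS in control mice was of a called gene, at 0.0196 after the GC correction. Without control water 4 and control DSS 2, log2 fold changes turned to -0.0480 for Slc9a2 and -0.0270 for Car4 between genotypes on water and 0.0243 for Slc9a2 after DSS. With DSS in control mice they turned there to -0.11 for Slc9a2, 0.0188 for Aqp8 and -0.0456 for Cftr, and in the difference of DSS effects to 0.0722 for Slc9a2 and 0.0331 for Car2. With the Y-linked covariate they turned with DSS in control mice to 0.19 for Slc26a3, 0.22 for Slc9a3, 0.10 for Car2, 0.0627 for Aqp8 and -0.0033 for Trpm6. With DSS in cKO mice that covariate gave 0.0641 for Slc9a2, 0.44 for Slc9a3, 0.0905 for Car2 and 0.0915 for Aqp8, and in the difference 0.0288 for Aqp8. Quantile normalization turned Car2 to 0.0035 on water, and Slc9a2 to 0.00045 between genotypes after DSS and -0.0157 with DSS in control mice. Limma voom turned Slc9a2 to -0.0080 with DSS in control mice and Aqp8 to 0.0120 in the difference, as did the shift of medians at 0.0126. The GC correction turned Cftr to -0.0824 and Trpm6 to -0.0474 with DSS in control mice. Without cKO DSS 3 and 4, Cftr turned to 0.0181 between genotypes after DSS and Car2 to 0.0040 in the difference.

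Leaving out single libraries turned signs within these ranges. Between genotypes on water they were -0.0572 to 0.22 for Slc26a3, -0.0480 to 0.12 for Slc9a2 and -0.0270 to 0.21 for Car4, and after DSS -0.0497 to 0.0243 for Slc9a2. With DSS in control mice they were -0.0708 to 0.098 for Slc9a2 and -0.0476 to 0.15 for Trpm6, and in cKO mice -0.15 to 0.25 for Car1. In the difference of DSS effects they were -0.14 to 0.0331 for Slc9a2, -0.13 to 0.28 for Slc9a3, -0.13 to 0.0119 for Car2 and -0.14 to 0.15 for Aqp8. None of these was called as reported. Of the 10 genes, depth limits Trpm6 most, with 816 to 1965 reads per library.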
